A study of Rattus norvegicus with 6 samples.

Results

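The leukocyte tetraspanins measured here were Cd53, Cd82, Cd37, Cd81, Cd9, Cd63 and Cd151, 7 genes among the 14217 genes that had a probe set with a single symbol on the array. They were taken as every probe set annotated with exactly 1 of these symbols, which gave 1 probe set per gene, 7 of the 31042 probe sets tested. Whole blood of male Sprague-Dawley rats, 8 weeks old, was drawn from the heart, 24 h after the vessel was reopened. In the 3 rats of the MCAO (middle cerebral artery occlusion) group, a coated thread had closed the origin of the left middle cerebral artery for a time, and in the 3 rats of the sham group an uncoated thread had been inserted in the same way. Both groups had the neck vessels tied off in the same operation, and the 3 MCAO rats had been selected from a larger operated group by the size of their infarct. Each rat was measured on 1 array. The comparison asks how the messages of these membrane proteins in blood differed after brain infarction.

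Tetraspanins are small membrane proteins that cross the membrane several times and gather integrins, receptors and signaling molecules into microdomains at the cell surface. They have no ligand pocket shared by the family and act mainly through the partners that they hold. In blood, Cd53 is found on nearly all leukocytes, and Cd82 is found broadly on leukocytes and on many other cells. Cd37 is highest in B cells, and Cd81 belongs to the coreceptor complex of B cells with Cr2 but is also expressed widely. Cd9 is abundant on platelets, Cd63 lies in platelet granules and lysosomes, and Cd151 binds integrins of platelets and other cells.

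The promoters of the members fell into 2 kinds by the letters searched. RefSeq sequences on GRCr8, from 250 bases before to 50 bases after the annotated start, were given for 6 of the 7 genes. The motif GAGGAAGT, the core bound by PU.1, an ETS factor of myeloid and B cells, and the GC box GGGCGG, bound by Sp1, were searched on both strands, and the 2 motifs do not overlap in these promoters. They were chosen after the sequences had been seen. The PU.1 motif was in the promoters of Cd53 and Cd37, at 46 and 79 bases before the start by its first base on the gene's strand, and it occurs in 2.42% of 33469 promoters of this length. The GC box was in those of Cd81, Cd9, Cd63 and Cd151, 2 or 3 times each, and in 33.1% of all promoters. The shares of G and C were 40.7% for Cd53, 57.3% for Cd37 and 61.7% to 75% for the other 4 genes, against a median of 51.7%. A match is a description of the letters and not a bound site. The 4 promoters below are those of the 3 genes that moved together over the rats and of Cd9, the platelet member, on the strand of the gene and with matches in capitals. Both PU.1 matches lay on the opposite strand, so that the capitals are the reverse complement of the motif.
Cd53, chr2:197087847-197088146, minus strand: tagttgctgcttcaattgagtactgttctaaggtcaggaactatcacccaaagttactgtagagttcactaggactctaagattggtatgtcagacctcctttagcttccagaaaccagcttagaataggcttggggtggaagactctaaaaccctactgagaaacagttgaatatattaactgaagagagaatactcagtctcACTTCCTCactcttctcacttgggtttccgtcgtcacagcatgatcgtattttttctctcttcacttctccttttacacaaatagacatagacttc
Cd37, chr1:104860735-104861034, minus strand: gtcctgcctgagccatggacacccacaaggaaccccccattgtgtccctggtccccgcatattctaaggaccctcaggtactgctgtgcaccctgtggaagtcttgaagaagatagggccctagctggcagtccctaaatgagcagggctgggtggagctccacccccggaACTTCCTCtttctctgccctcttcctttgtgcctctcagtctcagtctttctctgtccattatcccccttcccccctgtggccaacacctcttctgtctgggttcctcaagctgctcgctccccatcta
Cd81, chr1:207665047-207665346, plus strand: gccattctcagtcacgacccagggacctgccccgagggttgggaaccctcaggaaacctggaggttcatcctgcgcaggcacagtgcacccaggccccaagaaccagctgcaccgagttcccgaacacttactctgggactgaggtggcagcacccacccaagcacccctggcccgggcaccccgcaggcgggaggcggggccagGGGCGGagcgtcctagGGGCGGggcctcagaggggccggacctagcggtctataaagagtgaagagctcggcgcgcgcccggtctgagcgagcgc
Cd9, chr4:159975309-159975608, minus strand: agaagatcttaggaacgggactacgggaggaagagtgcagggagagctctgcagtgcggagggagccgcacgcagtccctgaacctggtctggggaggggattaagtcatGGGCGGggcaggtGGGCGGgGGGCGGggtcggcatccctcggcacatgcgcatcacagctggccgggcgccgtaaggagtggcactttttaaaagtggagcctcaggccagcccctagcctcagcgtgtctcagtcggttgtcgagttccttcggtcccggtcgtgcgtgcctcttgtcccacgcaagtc

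All values below are log2 values on the scale of DFW (Distribution Free Weighted), the method by which the authors normalized the 6 arrays together. DFW contracts differences between arrays, and it does so unequally between probe sets, so the differences are not folds of raw intensity. The median probe set ranged over 6.55e-06 between the highest and the lowest rat. All 7 tetraspanins ranged over more than this. Cd53 ranged over 0.0288, more than 99.8% of the probe sets, and Cd37, Cd81, Cd9 and Cd151 ranged over 0.00163, 0.00101, 0.00101 and 0.000704, more than 97.5%, 96.5%, 96.5% and 95.7%. Cd82 and Cd63 kept far less spread than these, with ranges of 5.44e-05 and 2.53e-05, still more than 85.6% and 77.7% of the probe sets.

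**Figure D1:**
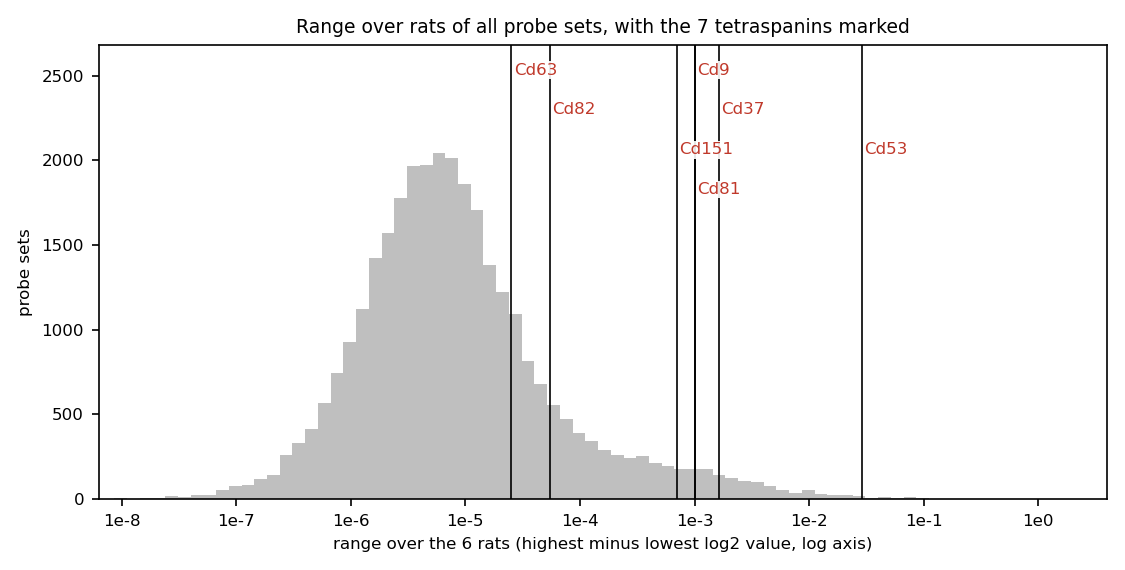
Number of probe sets (y axis) by their range over the 6 rats, highest minus lowest log2 value on a log axis (x axis), with a line at each tetraspanin. Cd53 lies at 0.0288 near the upper end, and Cd63 at 2.53e-05 lies closest to the median of 6.55e-06.

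All 7 probe sets were brighter than the median probe set. In mean log2 value over the rats, Cd9 exceeded 99.0% of the probe sets, Cd82 98.7%, Cd151 98.1%, Cd53 97.9%, Cd81 94.8%, Cd63 92.7% and Cd37 80.5%. Brightness depends on the probes of each probe set, so these shares place each probe set on the array and do not order the genes by their messages. All 13 measured genes of the pan-leukocyte marker list, all 12 of the platelet list and all 11 of the erythroid list were brighter than the median probe set, as were all 10 of the B cell list, although Cd79a was not among the single-symbol probe sets. All 15 T cell genes were brighter too, while 3 of 10 NK and cytotoxic cell genes, 3 of 11 neutrophil genes and 2 of 11 monocyte genes were below the median probe set.

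No tetraspanin was called different between the MCAO and sham groups. Rank Products, the method of the study, called 0 of 7 lower and 0 of 7 higher at a false discovery rate (FDR) under 0.05, where it called 0.606% of all probe sets lower and 0.129% higher. Probe sets of wide spread take its extreme ranks. With ranges of 5.44e-05 and 2.53e-05, Cd82 and Cd63 could therefore hardly be called on this scale. By limma 0 of 7 passed an adjusted p of 0.05, and 0 of 7 had an unadjusted p under 0.05, while 0 and 1150 of the 31042 probe sets did. Of the 7 members, 3 had a lower mean in the MCAO group (Cd53, Cd37 and Cd81) and 4 a higher one. The median log2 difference of the 7 was 5.69e-06, against 6.72e-08 over all probe sets. For 0 of 7 the MCAO rats all lay below the sham rats, beside 3.6% of all probe sets, and for 0 of 7 they all lay above, beside 4.82%, or 8.41% in either direction. With 3 rats against 3 an exact two-sided permutation test cannot go below p = 0.1, so that a difference of this kind could not have passed it.

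Cd53, the tetraspanin of nearly all leukocytes, had the widest range and the largest log2 difference of the members on this scale. Its values were 7.5669, 7.5858 and 7.5958 in MCAO rats 1 to 3, against 7.5846, 7.5950 and 7.5910 in sham rats 1 to 3. MCAO rat 1 was far below all other rats, whereas MCAO rat 3 was the highest of the 6. The MCAO mean was 7.583 ± 0.0147 and the sham mean 7.590 ± 0.00525 (SD, n = 3 each), which left a log2 difference of -0.0074 (SE 0.0085, 95% interval -0.030 to 0.015). The groups overlapped, with an exact permutation p of 0.7, a limma adjusted p of 1 and a Rank Products FDR of 0.0918 for lower in MCAO. Single rats decided both the direction and the call. Without MCAO rat 1 the log2 difference was 0.00057, and without MCAO rat 3 the FDR was 0.00275, where 1.09% of all probe sets were called lower.
Cd82, also known as Kai1, had the narrowest range of the members after Cd63, although a wider one than 85.6% of the probe sets. It lay at 8.463551, 8.463540 and 8.463545 in MCAO rats 1 to 3, against 8.463511, 8.463517 and 8.463565 in sham rats 1 to 3. The 3 MCAO rats lay between the low sham rats 1 and 2 and the high sham rat 3. The log2 difference was 1.4e-05 (SE 1.6e-05, 95% interval -2.9e-05 to 5.8e-05), with an exact permutation p of 0.4. After quantile normalization it was 0.0025 (SE 0.0021), with an FDR of 0.114 for higher in MCAO.

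Both B cell members lay lower on average in the MCAO group, and neither passed a test. Cd37 had values of 5.97928, 5.98025 and 5.98065 in MCAO rats 1 to 3, against 5.98033, 5.98091 and 5.98079 in sham rats 1 to 3. The 3 MCAO rats were all below sham rats 2 and 3, and only sham rat 1 lay among them. The log2 difference was -0.00062 (SE 0.00042, 95% interval -0.0017 to 0.00049), with an exact permutation p of 0.2 and a Rank Products FDR of 0.141.
Cd81 had values of 6.68260, 6.68326 and 6.68354 in MCAO rats 1 to 3, against 6.68347, 6.68361 and 6.68351 in sham rats 1 to 3. The SD was 0.000479 among MCAO rats and 6.94e-05 among sham rats, which lay close together with MCAO rat 3 among them. The log2 difference was -0.00040 (SE 0.00026, 95% interval -0.0011 to 0.00030), with an exact permutation p of 0.3 and an FDR of 0.310. Without MCAO rat 3, the remaining MCAO rats lay below every sham rat for both Cd37 and Cd81, and 23.7% of all probe sets were separated in either direction. Without MCAO rat 1 the log2 differences were closer to 0, at -0.00022 for Cd37 (FDR 0.244) and -0.00013 for Cd81 (FDR 0.658), and after quantile normalization that of Cd81 was -7.6e-05. In the same rats the B cell marker list averaged 6.2060 to 6.2072 in MCAO rats and 6.2073 to 6.2084 in sham rats, over 10 genes. Of these, 10 had a lower mean in the MCAO group, as 46.6% of all probe sets did. That share was 7.53% with each array centred and 32.9% with quantile-normalized values, and the direction of the 10 genes was not tested there. For 7 the MCAO rats all lay below the sham rats, beside 3.6% of all probe sets, whereas the groups overlapped for Cd37 and Cd81. Rank Products called 3 lower (Ms4a1, Fcmr and Cr2), beside 0.606% of all probe sets, and 8 were lowest in MCAO rat 1. The count called lower was 3 without MCAO rat 1 or MCAO rat 3 and 2 without MCAO rat 2 or sham rat 1. It was 0 without sham rat 2 or sham rat 3, where 0.0677% and 0.0387% of all probe sets were called lower. Whether Cd37 and Cd81 followed the amount of B cell message was not tested, and in whole blood fewer cells of a type and less RNA per cell cannot be told apart.

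The 3 platelet members were not called, and their mean differences were higher in the MCAO group by amounts within the spread between rats. Cd9 had values of 8.83969, 8.83989 and 8.84070 in MCAO rats 1 to 3, against 8.83978, 8.83999 and 8.84045 in sham rats 1 to 3. MCAO rat 3 and sham rat 3 were the highest of their groups, and the groups overlapped throughout. The log2 difference was 1.8e-05 (SE 0.00034, 95% interval -0.00090 to 0.00093), with an exact permutation p of 1. It turned to -0.00028 without MCAO rat 3, to -0.00013 without sham rat 1 and to -2.4e-05 without sham rat 2.
Cd151, a partner of laminin-binding integrins, had values of 7.79780, 7.79763 and 7.79824 in MCAO rats 1 to 3, against 7.79778, 7.79775 and 7.79754 in sham rats 1 to 3. MCAO rat 3 was the highest and sham rat 3 the lowest. The log2 difference was 0.00020 (SE 0.00019, 95% interval -0.00029 to 0.00070), with an exact permutation p of 0.4, and it was -0.00137 after quantile normalization.
Cd63, the granule member, had values of 6.478405, 6.478402 and 6.478420 in MCAO rats 1 to 3, against 6.478413, 6.478395 and 6.478402 in sham rats 1 to 3. All rats lay within 2.53e-05 of each other. The log2 difference was 5.7e-06 (SE 7.1e-06, 95% interval -1.3e-05 to 2.5e-05), with an exact permutation p of 0.6, and it was -0.00017 after quantile normalization. The platelet marker list averaged 8.1893 to 8.1901 in MCAO rats and 8.1892 to 8.1897 in sham rats. Of its 12 genes, 0 were called by Rank Products in either direction and 11 had a higher mean in the MCAO group. Over all probe sets, 46.6% had a lower mean in the MCAO group. This share depended on the processing: it was 7.53% with each array centred and 32.9% with quantile-normalized values. The direction of the platelet genes was not tested in those settings, so the count of 11 does not set them apart from the array. Among the alternatives, 1 platelet gene was called higher without sham rat 3, and 1 with the replicate number as a block.

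**Figure D2:**
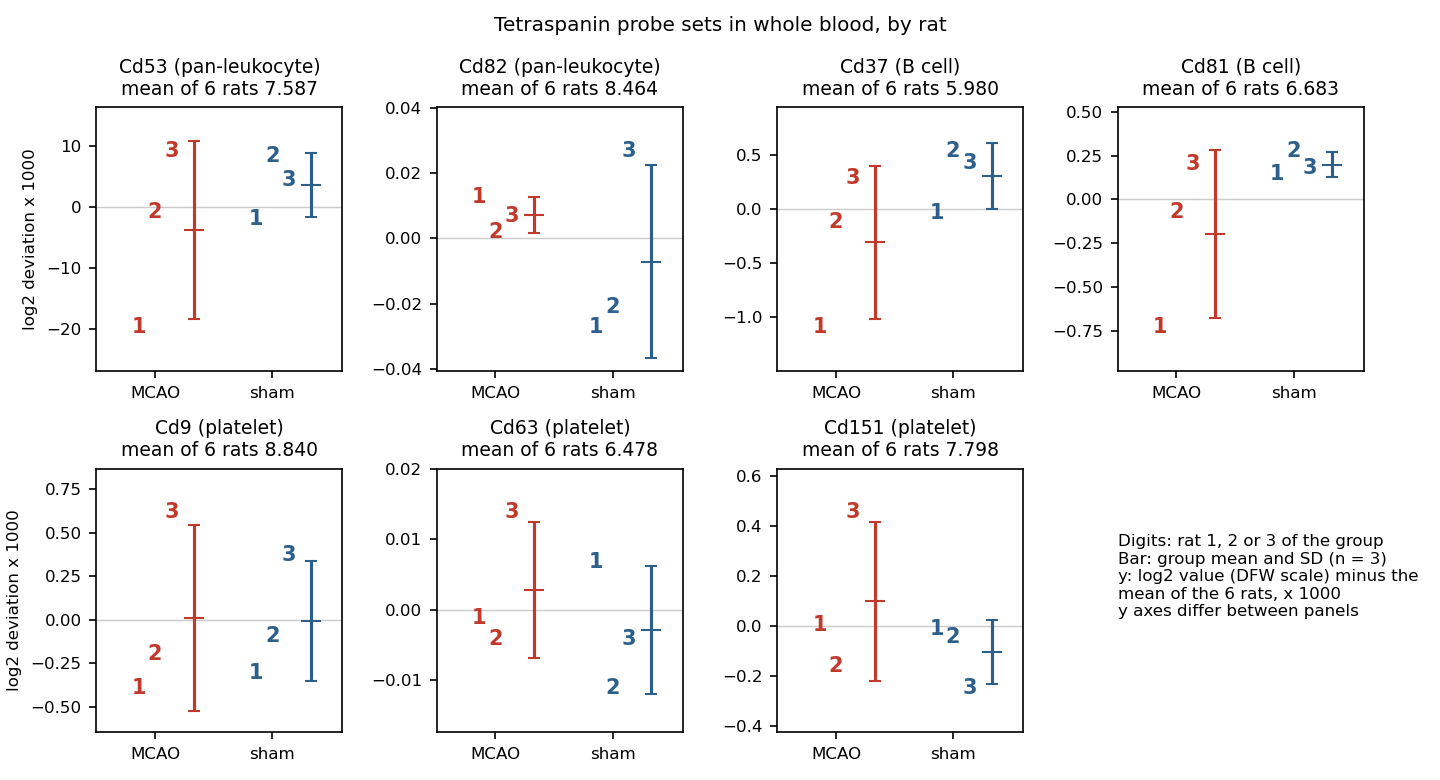
Log2 value of each tetraspanin probe set (DFW scale) minus the mean of the 6 rats, in thousandths of a log2 unit (y axis, its own scale in each panel), in the MCAO and sham groups (x axis), where each digit is a rat and bars give group mean and SD (n = 3). MCAO rat 1 is set apart at the bottom for Cd53, Cd37 and Cd81, and MCAO rat 3 is the highest for Cd53, Cd9, Cd63 and Cd151.

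Cd53, Cd37 and Cd81 moved together over the rats. Of the 21 pairs of members, these 3 pairs had a Pearson r over 0.9, and the other 18 lay between -0.325 and 0.753. Between Cd53 and Cd37 r was 0.972 (exact permutation p = 0.0111, 0.0778 after Benjamini-Hochberg adjustment over the 21 pairs), with a Spearman rho of 0.771 (exact p = 0.103, adjusted 0.408). Between Cd53 and Cd81 r was 0.955 (exact p = 0.0111, adjusted 0.0778), with a rho of 0.886 (exact p = 0.0333, adjusted 0.233). Between Cd37 and Cd81 r was 0.970 (exact p = 0.00278, adjusted 0.0583), with a rho of 0.943 (exact p = 0.0167, adjusted 0.175). With 6 rats, 0 of the 21 pairs passed an adjusted p of 0.05 by either measure.
The co-variation was weaker without MCAO rat 1, the lowest rat for all 3 genes. Without it 0 of the 21 pairs had an r over 0.9, and the r values were 0.849 for Cd53 and Cd37, 0.727 for Cd53 and Cd81 and 0.838 for Cd37 and Cd81. Without the 2 rats farthest from the median of the first gene of each pair, they were 0.960, 0.738 and 0.757 over 4 rats. With the group means taken out, r of the deviations was 0.994, 0.975 and 0.955 in the same order. These values pool all 6 rats, MCAO rat 1 included. After quantile normalization only the pair of Cd53 and Cd37 stayed over 0.9, at 0.901. Of these 3 genes, Cd53 and Cd37 carry the PU.1 motif in the promoters printed above and Cd81 does not. The motif was chosen after the sequences had been seen, and a link to the co-variation was not tested.

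**Figure D3:**
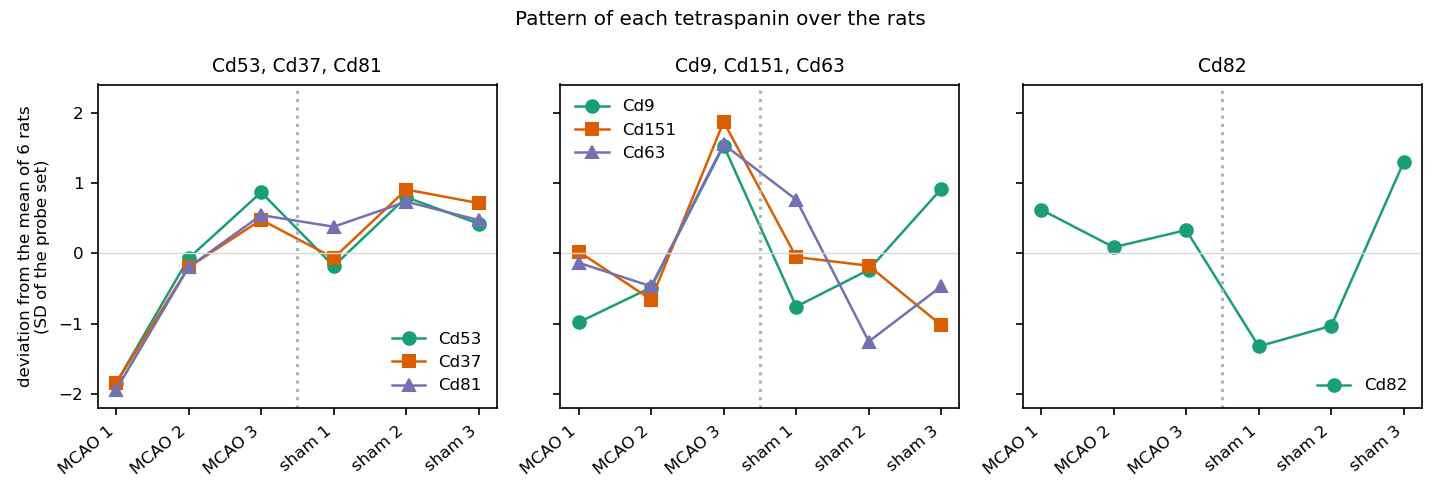
Deviation of each tetraspanin from its mean over the 6 rats, in SDs of its probe set (y axis), for MCAO rats 1 to 3 and sham rats 1 to 3 (x axis), with 1 line per gene. Cd53, Cd37 and Cd81 run nearly on top of each other with MCAO rat 1 lowest, and MCAO rat 3 is the high point of Cd9, Cd151 and Cd63.

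The platelet members did not form such a group. Cd63 and Cd151 had an r of 0.753 (exact permutation p = 0.0944, adjusted 0.432) and a rho of 0.714 (exact p = 0.136, adjusted 0.408), and r was 0.226 without MCAO rat 3. Cd9 had an r of 0.459 with Cd151 and of 0.420 with Cd63 (exact p = 0.4 and 0.403, adjusted 0.846 for both). The sign of the relation between Cd9 and Cd151 turned on single rats, with an r of -0.862 without MCAO rat 3 and of 0.884 without sham rat 3. Cd9 was closer to Cd53, with an r of 0.70 (exact p = 0.103, adjusted 0.432) and a rho of 0.943 (exact p = 0.0167, adjusted 0.175). Cd82 had r between -0.325 and 0.467 with the other members, and after quantile normalization r was -0.790 with Cd37 and -0.616 with Cd53.

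Beside the marker lists, Cd53, Cd37 and Cd81 lay closest to the pan-leukocyte genes and Cd9 to the platelet genes. These correlations share the same 6 arrays and their normalization and are given as a description. Cd53 had a median r of 0.977 with the 13 pan-leukocyte markers, and r was over 0.9 for 9 of them. Cd37 and Cd81 had medians of 0.944 and 0.911 with the same list. With the 10 B cell markers the medians were 0.812 for Cd37, 0.774 for Cd81 and 0.690 for Cd53, so that both B cell members lay closer to the pan-leukocyte list than to the B cell list. The T cell and the NK and cytotoxic cell medians were near or above these values. They were 0.829 and 0.825 for Cd37, 0.760 and 0.774 for Cd81, and 0.807 and 0.841 for Cd53. Cd9 had its highest median r, 0.881, with the 12 platelet markers, and r was over 0.9 for 3 of them. Its medians were 0.708 with the pan-leukocyte, 0.614 with the neutrophil and 0.609 with the NK and cytotoxic cell markers. With the B cell markers the median of Cd9 was 0.298. Cd151 had medians of 0.790 with the 11 neutrophil markers and 0.706 with the platelet markers, and of -0.479 with the B cell markers. Cd63 had 0.533 with the neutrophil and 0.493 with the platelet markers, and Cd82 had none over 0.447. Over all other probe sets the median r was -0.200 with Cd53, -0.185 with Cd37, -0.0949 with Cd9 and -0.0363 with Cd151.
MCAO rat 1 was low in the leukocyte markers too. It was the lowest rat for 12 of the 13 pan-leukocyte genes and for 4 of the 7 tetraspanins, against 19.5% of all probe sets. The pan-leukocyte list averaged 7.32046 in MCAO rat 1, 7.32589 in MCAO rat 2 and 7.32879 in MCAO rat 3, against 7.32561, 7.32920 and 7.32778 in sham rats 1 to 3. These rats stood in the same order for Cd53, except that MCAO rat 3 and sham rat 2 changed places. The part of the leukocyte content in the values of Cd53, Cd37 and Cd81 was not tested. Rank Products called lower 4 of the 13 pan-leukocyte genes (Ptprc, Coro1a, Lcp1 and Itgal), 2 of 15 T cell genes (Cd3g and Tcf7) and 2 of 10 NK and cytotoxic cell genes (Prf1 and Ccl5). Of 11 neutrophil genes it called Csf3r and Il1r2 higher and S100a9 lower, although the mean log2 difference of S100a9 was 0.0027, and of 11 monocyte and 11 erythroid genes it called 0. These counts stand beside 0.606% of all probe sets called lower and 0.129% called higher, and they turned on single rats and on the processing. The pan-leukocyte count was 8 without MCAO rat 3, 1 without MCAO rat 2 and 0 without MCAO rat 1 or any 1 of the sham rats. Without MCAO rats 1 to 3, 0.818%, 0.535% and 1.09% of all probe sets were called lower. Without sham rats 1 to 3 the shares were 0.139%, 0.0677% and 0.0387%, so that calls fell over the whole array there. The pan-leukocyte count was also 0 after quantile normalization, with rank sums and over only the brighter probe sets. Of all probe sets tested, 0.254%, 0.512% and 0.58% were called lower in these 3 settings. Over all alternatives, the T cell genes called lower numbered 0 to 5 and the NK and cytotoxic cell genes 0 to 3, and both counts were 0 without MCAO rat 1, sham rat 2 or sham rat 3. The neutrophil genes numbered 0 to 2 in each direction, the monocyte genes 0 to 2 lower and 0 to 1 higher, and the erythroid genes 0 to 2 lower.

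**Figure D4:**
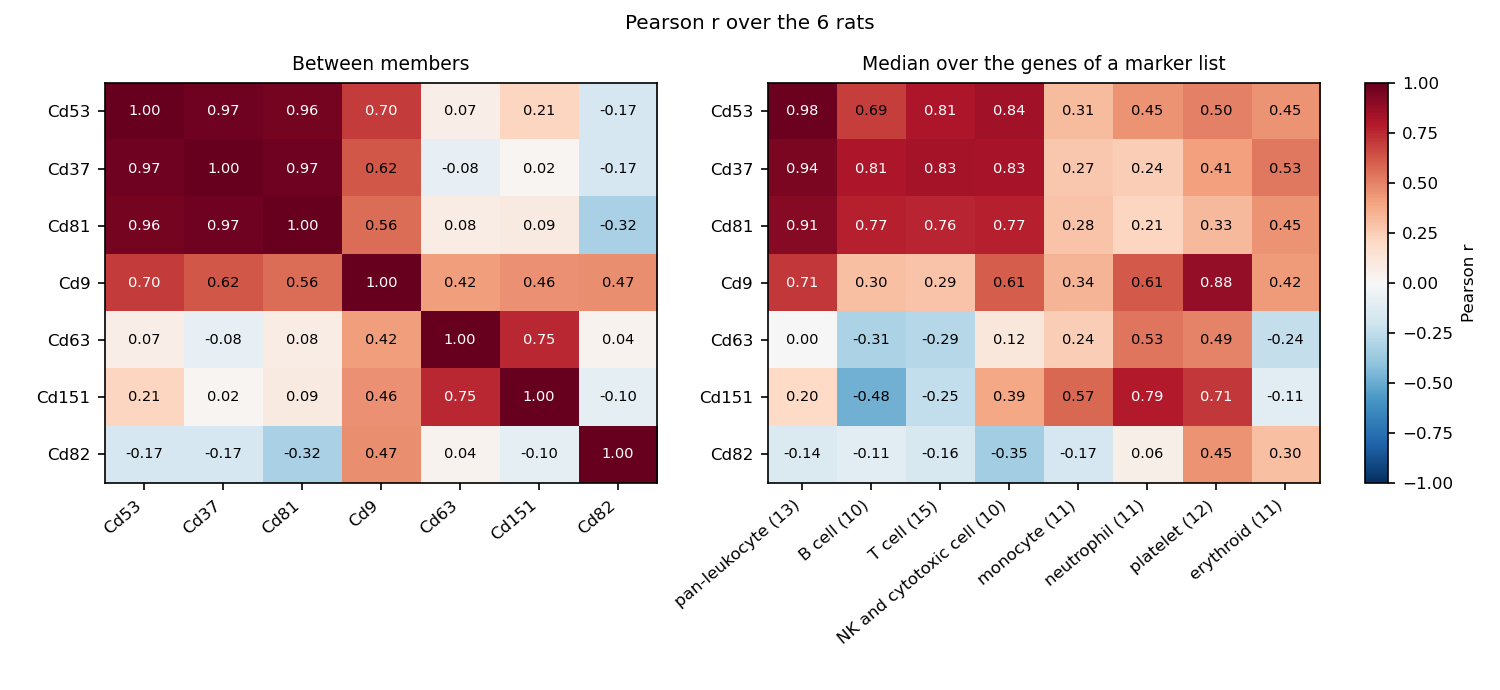
Pearson r over the 6 rats between the 7 tetraspanins (left) and the median r of each tetraspanin with the genes of a marker list (right, number of genes in brackets), where colour runs from -1 to 1. Cd53, Cd37 and Cd81 form a block over 0.9 and share high values with the pan-leukocyte list, whereas Cd9 is highest with the platelet list at 0.88.

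High correlations with other genes were common with 6 rats. Of 31041 other probe sets, 4.45% had an r over 0.9 with Cd53, 4.09% with Cd37, 2.81% with Cd81, 1.36% with Cd9 and 0.364% to 0.635% with the other 3 members. The genes most like Cd53 were Kdm5a, a histone demethylase (r = 0.9988), Zfr, an RNA-binding zinc finger protein (0.9987), and Kmt2e, a chromatin protein (0.9985). Those most like Cd37 were Ndufs1, a subunit of respiratory complex I (0.9974), Rbbp7, a histone-binding protein (0.9973), and Prkcb, the protein kinase C of B cell receptor signaling (0.9956). Those most like Cd9 were Pdha1, of the pyruvate dehydrogenase complex (0.9927), the septin Septin7 (0.9917) and Cox5a, of cytochrome c oxidase (0.9912).

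The rest of the tetraspanin family was likewise not called. Of 25 other tetraspanins listed, 21 were measured, and 0 were called lower and 0 higher by Rank Products, with a median log2 difference of -3.1e-07. The largest log2 differences were those of Tspan8, at -0.0014 (SE 0.0012), Tspan5, at -0.00059 (SE 0.00026), and Tspan33, at -0.00033 (SE 0.00014). Their FDRs were 0.185, 0.0886 and 0.144, and the groups overlapped for all 3. Without MCAO rat 1, 2 of the 21 were called lower, where 0.818% of all probe sets were.
Of 26 measured partners, such as the integrins, receptors and MHC chains that tetraspanins hold, 7 were called lower and 0 higher, beside the 0.606% of all probe sets called lower, with a median log2 difference of -1.1e-06. Of the partners of B cells and antigen-presenting cells, Cd74, the invariant chain, had a log2 difference of -0.021 (SE 0.012), RT1-Da, an MHC class II chain, had -0.015 (SE 0.0095), RT1-Db1, on a probe set of the type shared by related transcripts, had -0.0059 (SE 0.0023), and Cr2, which joins Cd81 in the B cell coreceptor, had -0.00083 (SE 0.00033). The others called were Cd36, a scavenger receptor found with Cd9 on platelets, with -0.0090 (SE 0.0069), Cd47, the integrin-associated protein, with -0.0026 (SE 0.0012), and Itgal, the alpha chain of the leukocyte integrin LFA-1, with -0.0028 (SE 0.0024). For 2 of the 26, RT1-Db1 and Cr2, the MCAO rats all lay below the sham rats, beside 3.6% of all probe sets. For 1 other partner, which was not called, they all lay above, beside 4.82%. The list of partners was written with earlier results of these rats known, so that this count is no independent evidence, and Cr2 and Itgal also stand in the B cell and pan-leukocyte lists. The count of called partners was 1 without sham rat 2, 0 without sham rat 3 and 4 without MCAO rat 2 or sham rat 1. In the same order, 0.0677%, 0.0387%, 0.535% and 0.139% of all probe sets were called lower.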

How the data were processed

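Blood RNA from 3 MCAO and 3 sham rats was hybridised to GeneChip rat genome arrays, 1 for each rat. The authors deposited log2 values for each probe set, normalized over the 6 arrays with DFW in R, with no stated filter. The log base is not stated and was taken from the range of 4.93 to 14.43. No background estimate comes with them, and 3 arrays a group limit the precision.

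The 57 control probe sets were left out. Rank Products was written in Python 3.11.15 (numpy 2.4.6, pandas 2.3.3, scipy 1.17.1) for 2 unpaired classes, with the 9 differences between an MCAO and a sham rat, 100 permutations of the probe sets within arrays and an FDR under 0.05 over all 31042 probe sets. An estimated FDR can exceed 1. Probe sets of wide spread take the extreme ranks here. From limma 3.58.1 (R 4.3.3) came log2 differences (MCAO minus sham), SEs and Benjamini-Hochberg adjusted p over all probe sets. Exact permutation tests were two-sided. Symbols are those of the array's annotation, and a gene of a list was represented by its brightest probe set. Both methods were tested on simulated data.

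The members, lists and tests were chosen with earlier results of these data known. Named genes were all members, called genes of the lists, the 3 partners and 3 other tetraspanins with the largest difference, and the 3 genes most like Cd53, Cd37 and Cd9. The alternatives were limma, rank sums, an FDR of 0.01, quantile normalization, centring on the median, only the brighter probe sets, keeping control probe sets, an intensity trend, a replicate block and leaving out each rat.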

Additional observations from a re-analysis of the deposited data

How the results depend on the processing

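No tetraspanin was called under limma, rank sums, an FDR of 0.01, quantile normalization, centring on the median, only the brighter probe sets or with control probe sets included. Same-numbered rats share only a number in the labels, and the correlations of their deviations from the group means were 0.215, 0.0399 and 0.0631 for numbers 1 to 3, while MCAO rat 3 was closest to sham rat 2 (0.174). With the replicate number as a block, Rank Products called 1 member, Cd53 (FDR 0.0214), limma called 0, and the calls over all probe sets were 292 lower and 59 higher, against 188 and 40 without the block. Leaving out each rat in turn gave 0 to 1 called members, Cd53 without MCAO rat 3, and 0 to 2 members with groups that do not overlap. These were Cd37 and Cd81 without MCAO rat 3, Cd37 without sham rat 1, Cd151 without MCAO rat 2 and Cd82 without sham rat 3, where 15.5% to 23.7% of all probe sets did so. The pairs of members with r over 0.9 numbered 0 to 4, with 0 without MCAO rat 1, and 1 after quantile normalization. Log2 differences that changed sign were those of Cd53 (-0.0139 to 0.00057 when leaving out each rat), Cd9 (-0.00028 to 0.00022), Cd63 (-0.00017 after quantile normalization) and Cd151 (-0.00137 after quantile normalization), and the cause was not tested. Centring on the median changed no sign, but it raised the log2 difference of Cd82 from 1.4e-05 to 4.4e-05 and that of Cd63 from 5.7e-06 to 3.5e-05. The array median was 5.56433 for MCAO rat 1 and 5.56438 to 5.56440 for the other rats. Cd9 had the same rank on every array, so that quantile normalization left it no spread. The called partners numbered 2 with rank sums, 5 after quantile normalization and 0 to 7 when leaving out each rat. In the same order, 0.512%, 0.254% and 0.0387% to 1.09% of all probe sets were called lower. Each gene had 1 probe set, so the alternative of other probe sets of a gene was not run.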
